A study of Mus musculus with 8 samples.

Results

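The vascular endothelial growth factor (VEGF) family was followed in mouse mammary tumors treated topically with calcipotriol or with its solvent. Its 10 genes were selected on family membership: the 5 ligand genes Vegfa, Vegfb, Vegfc, Vegfd and Pgf, the 3 receptor genes Kdr, Flt1 and Flt4, and the 2 neuropilin genes Nrp1 and Nrp2, out of 55414 gene identifiers in the table. The family was singled out with fold changes of these same tumors already known, so the differences of its members between the groups are given as description. Where a member is said to have been called or not, this gives its side of the thresholds in a fit over all genes and is no independent evidence. Vegfa was higher and Kdr was lower with calcipotriol in every tumor, by 2.69-fold and 3.37-fold. Vegfb was also lower in every tumor, by a smaller amount, and the other 7 members overlapped between the groups.

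Mammary tumors were grown from PyMt cells, a line made from a tumor of mice that carry the polyoma middle T antigen under the MMTV promoter, placed in the inguinal mammary fat pad of wild-type female C57BL/6 mice, given as 6 to 8 weeks old where the study describes this treatment. Calcipotriol, a low-calcemic analog of vitamin D, was put on the skin at 20 nmol in ethanol (EtOH) every 2 days, starting 2 days after implantation, and control tumors received EtOH alone. Tumors were collected 24 hours after the last application, and RNA of 4 EtOH-treated tumors (replicates 1 to 4) and 4 calcipotriol-treated tumors (replicates 1, 5, 6 and 7) was sequenced, 1 library each. All tumors come from 1 tumor cell line in wild-type hosts. The study describes the 4 samples of each group as biological replicates. The labels do not say whether each tumor comes from its own mouse, so p-values measure only the spread between these samples.

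VEGF ligands are secreted dimers that act mainly on endothelial cells, the cells that line blood and lymphatic vessels. VEGF-A binds the receptor tyrosine kinases VEGFR2 (Kdr) and VEGFR1 (Flt1), of which VEGFR2 carries most of the growth signal and VEGFR1 binds the ligand tightly with weak kinase activity. VEGF-B and placental growth factor (Pgf) bind VEGFR1, while VEGF-C and VEGF-D bind VEGFR3 (Flt4), the receptor of lymphatic endothelium. Neuropilins are coreceptors that bind some VEGF forms and also class 3 semaphorins. In tumors, VEGF-A is known as a ligand made by cancer cells, macrophages and other stromal cells and as an inducer of new vessels.

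The DNA just before the start sites of the 3 members whose groups did not overlap (Vegfa, Vegfb and Kdr) is shown to place the genes in the genome and to allow their start regions to be compared. The sequences are from RefSeq (GRCm38.p6), run 5′ to 3′ toward the gene and stop before the first transcribed base in that set, and all 10 members matched an entry in that set. For Vegfa, the bases after the RefSeq start were not found in a GENCODE M21 transcript of the gene, and the window does not adjoin the gene end in that annotation, so its start is less certain than those of Vegfb and Kdr. Capitals mark a hypoxia response core (ACGTG or GCGTG) or a GC box (GGGCGG), on either strand.
Vegfa (chr17:46032378-46032627, reverse strand): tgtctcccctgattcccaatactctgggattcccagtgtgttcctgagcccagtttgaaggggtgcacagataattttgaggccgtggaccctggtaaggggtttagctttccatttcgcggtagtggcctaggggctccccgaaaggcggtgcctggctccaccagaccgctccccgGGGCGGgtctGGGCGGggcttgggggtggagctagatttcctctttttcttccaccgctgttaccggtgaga
Vegfb (chr19:6987652-6987901, reverse strand): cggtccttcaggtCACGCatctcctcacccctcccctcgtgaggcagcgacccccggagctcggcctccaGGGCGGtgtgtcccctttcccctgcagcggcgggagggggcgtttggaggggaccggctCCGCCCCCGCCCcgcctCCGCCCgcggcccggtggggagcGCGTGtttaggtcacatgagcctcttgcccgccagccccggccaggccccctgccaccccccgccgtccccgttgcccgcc
Kdr (chr5:75978459-75978705, reverse strand): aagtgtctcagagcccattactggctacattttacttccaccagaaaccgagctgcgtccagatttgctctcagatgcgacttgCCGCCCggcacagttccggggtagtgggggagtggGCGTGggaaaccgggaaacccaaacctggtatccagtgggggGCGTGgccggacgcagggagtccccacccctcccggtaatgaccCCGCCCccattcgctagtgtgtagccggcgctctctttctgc

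In the 250 bases before the start, the Vegfa window held 2 GC boxes and 0 hypoxia cores. The Kdr window held 2 of each, and the Vegfb window held 2 hypoxia cores and 4 GC boxes. No match of one motif overlapped a match of the other in these windows. A hypoxia core was found in 6 of 10 members and in 38.6% of all 32851 windows, and a GC box in 9 of 10 members and 32.7% of all windows. An ETS core (CGGAAG), an AP-1 site (TGANTCA) and a DR3-type vitamin D response element, searched on both strands, were found in 0 of 10 members, against 13.6%, 6.75% and 0.222% of all windows. These are matches of letters in a short window and do not show that a factor binds there.

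The library totals ranged from 19685419 to 25084713 counts. Some tumors stood apart in ways the labels do not name. Among the EtOH-treated tumors, the summed level of 21 endothelial markers was 728 and 740 counts per 1000000 (CPM) in replicates 1 and 2 and 355 and 398 CPM in replicates 3 and 4. The summed skeletal muscle markers ran the other way, at no more than 4.82 CPM in replicates 1 and 2 and no less than 39.6 CPM in replicates 3 and 4. Csf1r, a receptor that marks macrophages, was at 220 CPM in calcipotriol replicate 1, above the other 3 calcipotriol-treated tumors (72.2 to 74.2 CPM) and below all EtOH-treated tumors (308 to 372 CPM). The labels call the cell type epithelial, and the study took RNA from tumors. The epithelial keratins Krt8 and Krt18 were abundant in every tumor, at 260 to 665 CPM, while Epcam, which marks most epithelia, was at 0 in EtOH replicates 1 and 2 and at most 22.7 CPM elsewhere.

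CPM values were scaled by TMM factors, which assume that most genes do not differ between tumors. edgeR's quasi-likelihood test was run on 14458 genes, and a gene was counted as called when its adjusted p (Benjamini-Hochberg) was under 0.05 and its log2 fold change was 1 or more in size. Of the genes tested, 292 were called (2.02%), 155 higher (1.07%) and 137 lower (0.948%) with calcipotriol, and 1804 (12.5%) had 4 tumors of one group all above the 4 of the other. All 10 members passed the filter on low counts. Of these, 1 was called higher (Vegfa) and 1 lower (Kdr), and 3 had groups that did not overlap. Since the members were listed with this comparison known, nothing is read from these counts.

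**Figure D1:**
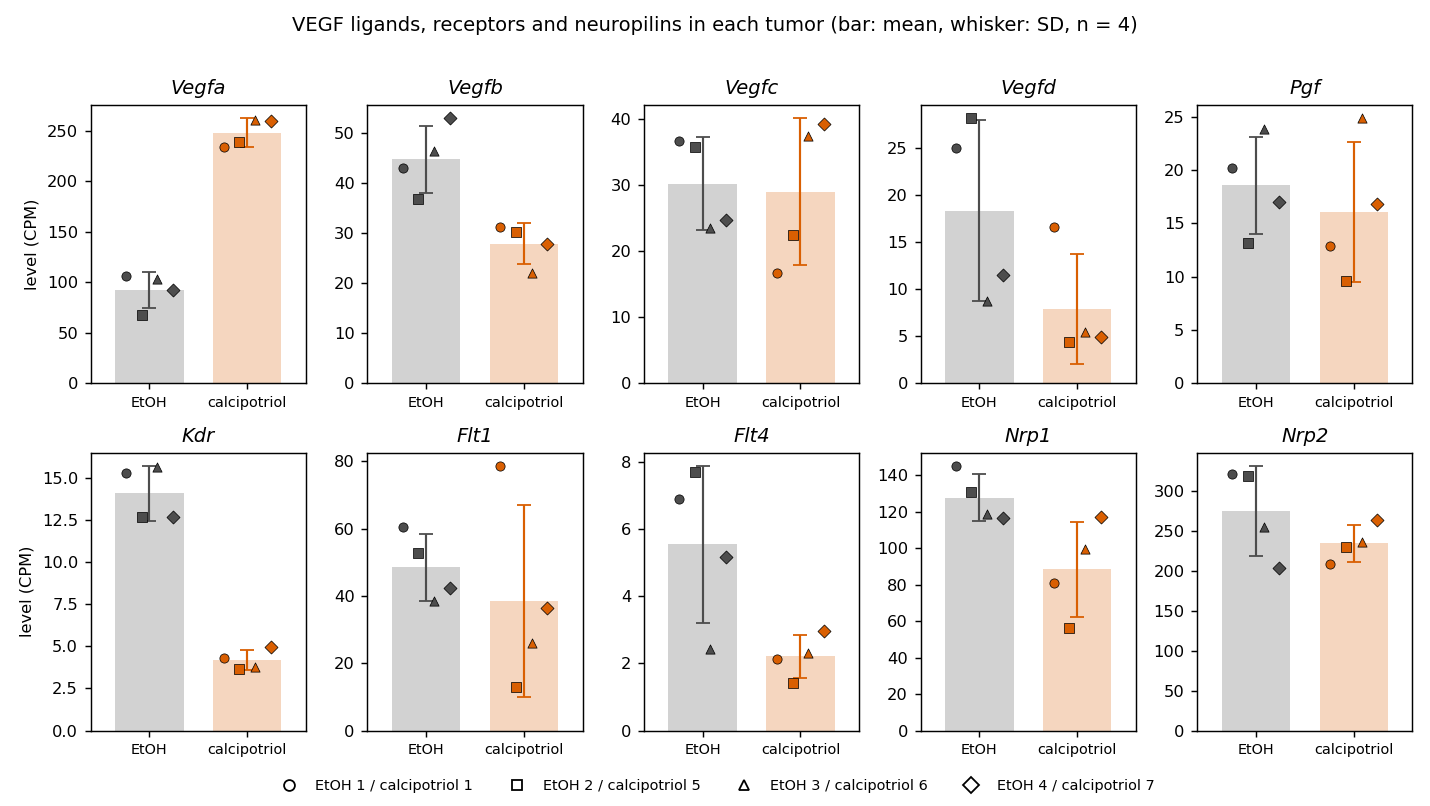
Level of each VEGF family member in every tumor, in CPM on linear axes that start at 0. Each point is 1 tumor, and its shape gives the replicate (a shape shared by both groups does not pair the tumors). The height of the column is the mean and the whisker the SD of 4 tumors. The points of Vegfa, Vegfb and Kdr do not overlap between EtOH and calcipotriol.

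Vegfa (chromosome 17, 46016993 to 46032369, reverse strand, in GRCm38 with GENCODE M21), the main angiogenic ligand, had 106, 66.9, 103 and 92.4 CPM in EtOH replicates 1 to 4. In calcipotriol replicates 1, 5, 6 and 7 it had 233, 238, 261 and 259 CPM. The lowest calcipotriol-treated tumor thus lay above 2 times the highest EtOH-treated tumor, and the calcipotriol-treated tumors were close to each other. The mean was 92.1 ± 17.8 CPM with EtOH and 248 ± 14.1 CPM with calcipotriol (SD, n = 4 each), a log2 fold change of 1.43 ± 0.155 (standard error). This rested on 1375 to 2536 counts in EtOH-treated tumors and 5219 to 6115 counts in calcipotriol-treated tumors.

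Vegfb (chromosome 19, 6982473 to 6987651, reverse strand) encodes a ligand of VEGFR1 that is known more for metabolic and survival effects than for vessel growth. Its level was 43.0, 36.9, 46.5 and 52.9 CPM in the EtOH-treated tumors. The calcipotriol-treated tumors had 31.3, 30.2, 22.1 and 27.9 CPM, all under the lowest EtOH value. The log2 fold change was -0.68 ± 0.161 (standard error), smaller than the fold change minimum of 1.

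Pgf (chromosome 12, 85166635 to 85177790, reverse strand), the other ligand that binds VEGFR1 alone, did not separate the groups. It had 20.2, 13.2, 23.9 and 17.0 CPM with EtOH and 12.9, 9.59, 24.9 and 16.8 CPM with calcipotriol, and calcipotriol replicate 6 was the highest of all 8 tumors. The log2 fold change of -0.21 ± 0.292 was smaller than its standard error. It lay between -0.50 without calcipotriol replicate 6 and -0.03 without calcipotriol replicate 5.

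The ligands of VEGFR3 differed from each other. Vegfc (chromosome 8, 54077606 to 54187096, forward strand), the main growth factor of lymphatic vessels, had 36.7, 35.7, 23.5 and 24.7 CPM with EtOH. With calcipotriol it had 16.6, 22.5, 37.5 and 39.2 CPM. Both groups thus covered a similar range, and the log2 fold change was -0.06 ± 0.28. Its sign turned when EtOH replicate 1 (0.05), EtOH replicate 2 (0.03), calcipotriol replicate 1 (0.13) or calcipotriol replicate 5 (0.04) was left out, so no direction is given for Vegfc.

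Vegfd (X chromosome, 164373378 to 164402650, forward strand), the second lymphatic ligand, had 25, 28.2, 8.79 and 11.5 CPM in the EtOH-treated tumors. Calcipotriol replicate 1 had 16.6 CPM, within the EtOH range, and calcipotriol replicates 5, 6 and 7 had 4.34, 5.48 and 4.96 CPM, under every EtOH-treated tumor. The log2 fold change was -1.22 ± 0.502 over all tumors, and -1.90 ± 0.411 without calcipotriol replicate 1.

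Kdr (chromosome 5, 75932827 to 75978458, reverse strand), the receptor that carries most VEGF-A signal, had 15.3, 12.7, 15.7 and 12.7 CPM in the EtOH-treated tumors. It had 4.29, 3.65, 3.80 and 4.96 CPM in the calcipotriol-treated tumors. The groups were far apart relative to their spread, with means of 14.1 ± 1.62 and 4.18 ± 0.590 CPM (SD, n = 4 each) and a log2 fold change of -1.75 ± 0.21. Kdr was read from 261 to 387 counts per tumor with EtOH and 79 to 117 counts with calcipotriol.

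Flt1 (chromosome 5, 147561604 to 147726011, reverse strand), whose product also exists as a secreted form that traps ligand, had 60.4, 52.8, 38.5 and 42.5 CPM with EtOH. It had 78.6 CPM in calcipotriol replicate 1, the highest of all 8 tumors, and 13.0, 26 and 36.3 CPM in calcipotriol replicates 5, 6 and 7. The spread among calcipotriol-treated tumors (SD 28.4 CPM around a mean of 38.5) was larger than the difference from the EtOH mean of 48.5 CPM. The log2 fold change was -0.33 ± 0.43 with all tumors and -0.95 without calcipotriol replicate 1. Of the calcipotriol-treated tumors, this one had the most Csf1r and the highest sum of endothelial markers (337 CPM, against 158 to 223 CPM in the others). Both were below those of every EtOH-treated tumor. The part of macrophages and of endothelial cells in the Flt1 level was not tested. Secreted and membrane forms cannot be told apart in counts per gene.

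Flt4 (chromosome 11, 49609263 to 49652739, forward strand), the receptor of lymphatic endothelium, had the fewest counts of the family, 31 to 158 per tumor. It had 6.91, 7.69, 2.43 and 5.16 CPM with EtOH and 2.15, 1.42, 2.31 and 2.97 CPM with calcipotriol. EtOH replicate 3 lay within the calcipotriol range, and the other 3 EtOH-treated tumors lay above it. The log2 fold change was -1.32 ± 0.419.

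The neuropilins were the most abundant of the receptor genes. Nrp1 (chromosome 8, 128358604 to 128503363, forward strand), a coreceptor for VEGF-A found on endothelium and several other cell types, had 145, 131, 119 and 117 CPM with EtOH and 81.1, 56.3, 99.4 and 117 CPM with calcipotriol. Only calcipotriol replicate 7 reached the EtOH range, and the log2 fold change was -0.53 ± 0.202. Nrp2 (chromosome 1, 62703285 to 62818695, forward strand), the coreceptor that VEGF-C uses, had 321, 319, 254 and 204 CPM with EtOH and 208, 229, 236 and 264 CPM with calcipotriol. The calcipotriol range lay inside the EtOH range for Nrp2, and the log2 fold change was -0.23 ± 0.163.

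**Figure D2:**
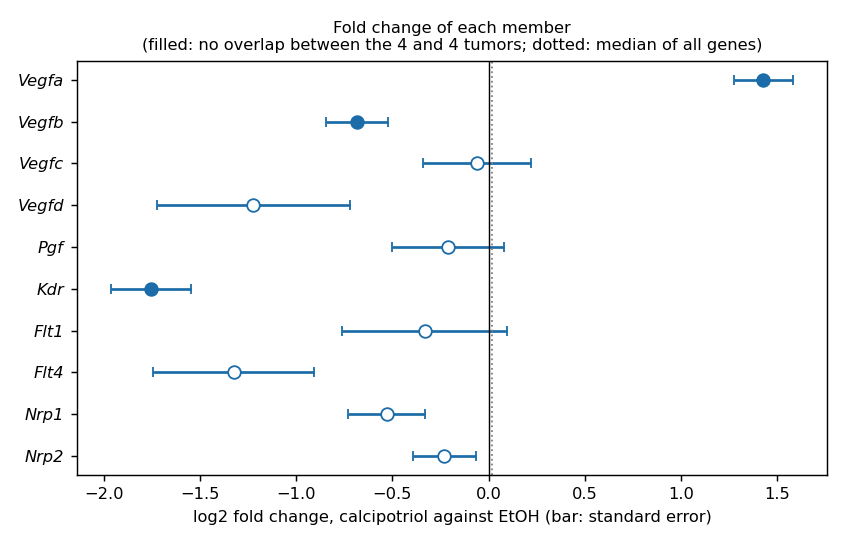
Log2 fold change of each VEGF family member, calcipotriol against EtOH, with its standard error as bars; filled points are members whose 4 and 4 tumors do not overlap and the dotted line is the median of all genes tested (0.02). Vegfa lies at 1.43 and Kdr at -1.75, and the other 8 members lie between -1.32 and -0.06.

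Levels of different genes were compared per exon length, as counts per base of merged exons scaled to the same total in each tumor. In EtOH-treated tumors the order from the highest was Vegfb (75.5 ± 10.7), Nrp2 (63.0 ± 15.0), Vegfa (58.4 ± 13.2), Nrp1 (35.5 ± 5.36), Vegfc (33.5 ± 8.92), Vegfd (20.8 ± 11.2), Pgf (17.4 ± 4.63), Flt1 (9.78 ± 2.42), Kdr (4.24 ± 0.653) and Flt4 (1.83 ± 0.792). Of neighbours in this order, Flt1 and Kdr, and Kdr and Flt4, had ranges over the 4 tumors that did not overlap, and all other neighbours overlapped. With calcipotriol, Vegfa came first at 168 ± 16.8, above Nrp2 at 57.5 ± 7.84 without overlap, and Vegfb came after Nrp2 at 50.4 ± 7.90. Flt1, Kdr and Flt4 remained the 3 lowest, at 8.46 ± 6.43, 1.35 ± 0.270 and 0.789 ± 0.268, and of these neighbours Flt1 and Kdr did not overlap. With the length of the longest transcript in place of merged exons, Flt1 (12.7 ± 9.60) came above Vegfd (8.61 ± 6.64) with calcipotriol, and their ranges overlapped.

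Vegfa took a larger share of the ligand transcripts with calcipotriol. It made up 29.6%, 22.5%, 32.2% and 28.6% of the summed ligand level per length in EtOH-treated tumors, and 59.2%, 62.7%, 60.4% and 59.5% in calcipotriol-treated tumors. Vegfb went from 36.9% ± 5.53 to 18.3% ± 3.63 (SD, n = 4 each), again without overlap, and the shares of Vegfc, Vegfd and Pgf overlapped between the groups. The 5 ligands summed to 183 to 244 with EtOH and 235 to 313 with calcipotriol on this scale, and these ranges overlapped. Vegfa transcripts per Kdr transcript, both per length, numbered 14.6, 11.1, 13.8 and 15.3 with EtOH. They numbered 115, 138, 145 and 110 with calcipotriol, 9.24 times the EtOH mean. Both quantities in this ratio come from the members already described above, so it adds no separate evidence.

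**Figure D3:**
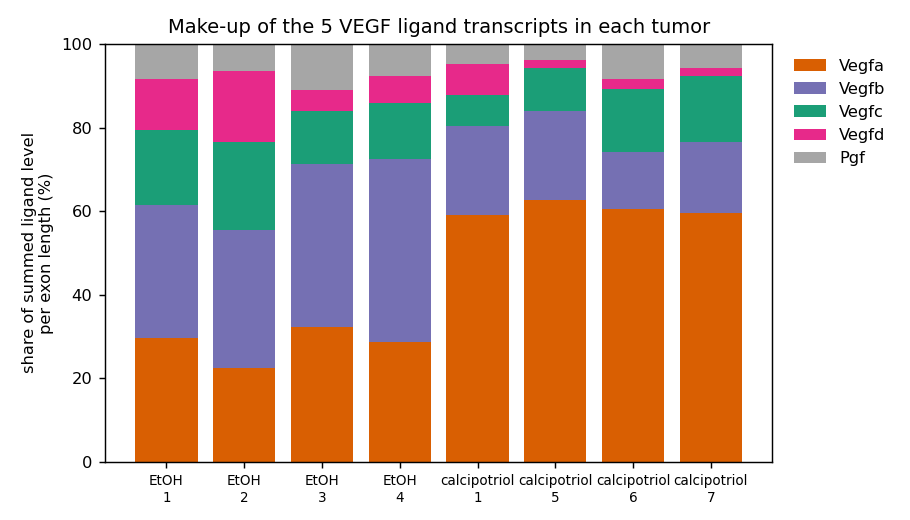
Share of each of the 5 VEGF ligands in their summed level per exon length, in percent, with 1 bar for each tumor. Vegfa takes 22.5% to 32.2% of the bar in the EtOH-treated tumors and 59.2% to 62.7% in the calcipotriol-treated tumors, and Vegfb takes 36.9% and 18.3% on average.

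Genes of endothelial cells, in which Kdr, Flt1 and Flt4 are best known, were lower as well. Of 21 endothelial marker genes tested, 10 were called lower and 0 higher, with a median log2 fold change of -1.46 against 0.02 over all genes tested. Robo4, an endothelial guidance receptor, fell by 2.19 on the log2 scale (standard error 0.353, edgeR adjusted p = 0.0134). Esam fell by 1.31 (standard error 0.22, edgeR adjusted p = 0.0161), and Vwf, the von Willebrand clotting factor, fell by 1.75 (standard error 0.304, adjusted p = 0.0179). The summed level of the markers was 728, 740, 355 and 398 CPM with EtOH and 337, 158, 223 and 220 CPM with calcipotriol, so all calcipotriol-treated tumors lay under all EtOH-treated tumors. With 1 tumor left out, 4 were called without EtOH replicate 1, 3 without EtOH replicate 2 or calcipotriol replicate 6, 2 without calcipotriol replicate 5, 1 without calcipotriol replicate 7, and 10 to 12 in the other fits. In RNA of whole tumors, fewer endothelial cells and less RNA per endothelial cell cannot be told apart.

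Kdr per 100 CPM of endothelial markers was 2.10, 1.72, 4.42 and 3.19 with EtOH and 1.27, 2.32, 1.70 and 2.26 with calcipotriol. The groups thus overlapped on this scale, on which the means were 2.86 ± 1.21 and 1.89 ± 0.494, while they did not in CPM. Flt4 per 100 CPM of these markers was 0.992 ± 0.252 with EtOH and 0.980 ± 0.297 with calcipotriol. Flt1 was 9.23 ± 1.83 with EtOH and 15.0 ± 6.55 with calcipotriol, overlapping again. The part of the endothelial markers in the difference of Kdr was not tested.

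**Figure D4:**
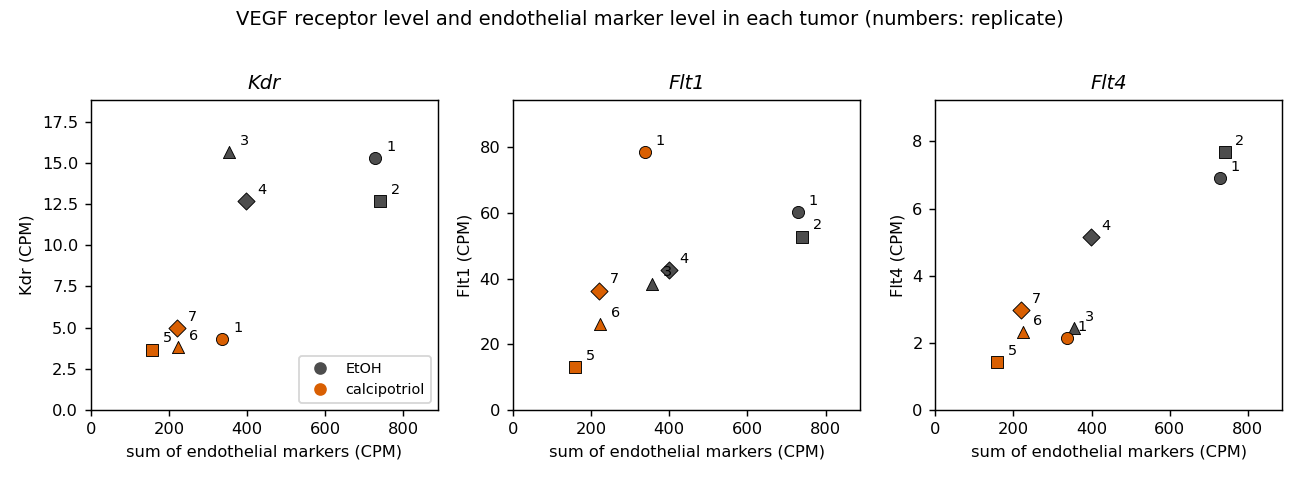
Level of the VEGF receptors (vertical axes, CPM) against the summed level of 21 endothelial markers (horizontal axes, CPM) in each tumor, with replicate numbers; all axes are linear and start at 0. Calcipotriol-treated tumors lie at 158 to 337 CPM of markers and EtOH-treated tumors at 355 to 740 CPM, and Kdr averages 4.18 CPM in the first and 14.1 CPM in the second.

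The sum of lymphatic endothelial markers overlapped between the groups. It was 30.6, 30.1, 102 and 97.9 CPM with EtOH and 70.8, 66.3, 72.6 and 77.0 CPM with calcipotriol. Most of it came from Pdpn, Lyve1 and Itga9, at 28.5, 19.8 and 12.4 CPM of a mean sum of 65.0 CPM with EtOH. Prox1, which defines this lineage, was at most 0.770 CPM in any tumor, so the sum is mainly a reading of those other genes. edgeR called 0 of the 6 lymphatic markers tested, with 0 at an unadjusted p under 0.05, and DESeq2 and limma-voom also called 0. Flt4 and Vegfd were highest in EtOH replicates 1 and 2, the tumors with the lowest lymphatic marker sum and the highest endothelial marker sum. Pericyte markers, of the cells that wrap vessels, gave 2 called lower of 8 tested, Mcam (fell by 1.31, standard error 0.199, edgeR adjusted p = 0.0107) and Rgs5 (fell by 2.60, standard error 0.439, adjusted p = 0.0162). Their sum was 425 to 924 CPM with EtOH and 339 to 521 CPM with calcipotriol. RNA of red blood cells, which fill the vessels of a tumor, separated the groups as Kdr did. Of 7 erythroid genes tested, 5 were called lower and 0 higher, all of them globin genes or Alas2, the first enzyme of heme synthesis in these cells, and their median log2 fold change was -2.93. The erythroid sum was 3460 to 5838 CPM with EtOH and 435 to 821 CPM with calcipotriol, and its part in the family's values was not tested. Epithelial markers, which the tumor cells carry, also separated the groups in sum, at 1013 to 1322 CPM with EtOH and 600 to 899 CPM with calcipotriol. Nearly all of this sum was Krt8 and Krt18, with means of 593 and 558 CPM with EtOH and 369 and 293 CPM with calcipotriol. The list as a whole did not fall: 5 of its tested genes had a higher sign and 2, these keratins, a lower one, with a median log2 fold change of 0.45. Of 7 tested, 1 was called, Cldn3, a tight junction protein that was higher with calcipotriol (0.431 ± 0.277 and 6.62 ± 1.76 CPM, SD, n = 4 each, edgeR adjusted p = 0.00654). Krt18 had a log2 fold change of -0.93 ± 0.157 (adjusted p = 0.0162), under the fold change minimum, and Krt8 one of -0.69 ± 0.198 (adjusted p = 0.0966), and neither keratin overlapped between the groups. The part of the epithelial markers in the family's values was not tested. Of the other marker lists, fibroblast, neutrophil, T cell, adipocyte and skeletal muscle genes gave 0 calls with edgeR, with 2, 1, 0, 0 and 2 genes at an unadjusted p under 0.05. limma-voom called 0 of them and DESeq2 called 1, a skeletal muscle gene.

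Macrophages are a known source of Vegfa in tumors. Of 11 macrophage markers tested, 1 was called higher, Cd163 (log2 fold change 1.87 ± 0.333, edgeR adjusted p = 0.0192), and 2 were called lower, Adgre1 (-1.24 ± 0.255, adjusted p = 0.0325) and Csf1r (-1.64 ± 0.35, adjusted p = 0.0374). The summed macrophage level was 2207 to 2683 CPM with EtOH and 1115 to 1979 CPM with calcipotriol, without overlap. The study, by staining of tumor sections, reported more macrophages with calcipotriol, a measure unlike these RNA levels. Without calcipotriol replicate 1, 7 macrophage markers were called lower and 1 higher, and without EtOH replicate 3 or 4 only 1 was called, higher. Without any 1 of the other 5 tumors, 0 were called. The part of macrophages in the Vegfa level was not tested. Keratinocytes also express Vegfa, and Krt14 was the only 1 of 4 tested keratinocyte markers called, higher with calcipotriol (0.686 ± 0.617 and 25.4 ± 22.8 CPM, SD, n = 4 each, edgeR adjusted p = 0.0336). The list as a whole did not rise: 2 tested genes had a higher sign and 2 a lower one, with a median log2 fold change of -0.04. Lor made up most of the mean sum with EtOH (9.35 of 13.8 CPM), and was at 4.64 CPM with calcipotriol. Krt14 made up most of the mean sum with calcipotriol (25.4 of 34.45 CPM). Krt14 was called in 1 of the 8 fits that left out a tumor, the fit without calcipotriol replicate 1. Flg, a marker of outer epidermis, was at 0 in all tumors. The keratinocyte sum ranged from 5.72 to 63.9 CPM in calcipotriol-treated tumors and from 11.8 to 14.9 CPM in EtOH-treated tumors, and its part in the Vegfa level was not tested.

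Genes that act with the family were grouped in 7 lists holding 125 genes, of which 123 were tested and 17 called, 2 higher and 15 lower, with a median log2 fold change of -0.18. The lists were drawn up with results of these tumors known and are not independent evidence of a direction. Fits that left out 1 tumor called 4 to 24 of these genes. The number was 4 without EtOH replicate 1, 4 without EtOH replicate 2, 6 without calcipotriol replicate 5, 6 or 7, and 24 without calcipotriol replicate 1.

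Among 20 partners and regulators of VEGF receptors, 6 were called lower and 0 higher, with a median of -0.35, and 3 without EtOH replicate 1, EtOH replicate 2 or calcipotriol replicate 7. Grem1, known as a BMP antagonist that can also bind VEGFR2, had 143, 177, 193 and 173 CPM with EtOH and 83.8, 75.9, 70.1 and 80.1 CPM with calcipotriol. It fell by 1.15 on the log2 scale (standard error 0.128, edgeR adjusted p = 0.00249). Cd93, an endothelial surface protein that binds Mmrn2 in the matrix, had 61.9, 69.9, 48.7 and 43.5 CPM with EtOH and 25.4, 11, 18.6 and 19.8 CPM with calcipotriol. Cd93 fell by 1.58 (standard error 0.249, adjusted p = 0.0123) and Mmrn2 by 1.67 (standard error 0.281, adjusted p = 0.0162). Cdh5, Robo4, Mmrn2, Ptprb and Clec14a of this list are also among the endothelial markers. Grem1, Cd93 and Robo4 kept their calls in 14 of 14 alternatives and Mmrn2 in 11.

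Of 13 genes that VEGF is known to induce in endothelial cells, 5 were called lower and 0 higher, with a median of -0.94. The endothelial markers had a lower median, -1.46, with 10 of 21 called lower, and their part in these values was not tested. In RNA of whole tumors, these 13 genes are not read from endothelial cells alone. Egr3, an immediate early transcription factor, went from 99.95 ± 19.2 to 48.0 ± 6.55 CPM (SD, n = 4 each). Its log2 fold change was -1.06 ± 0.163 (standard error, edgeR adjusted p = 0.0111). Esm1, a proteoglycan of endothelial tip cells, had 19.0, 19.6, 9.44 and 12.0 CPM with EtOH and 4.33, 0.548, 2.40 and 2.97 CPM with calcipotriol. It fell by 2.54 (standard error 0.508, adjusted p = 0.0291), and Nid2 (fell by 1.62, adjusted p = 0.0404) and Dll4 (fell by 1.52, adjusted p = 0.0436) passed more narrowly. The number called was 0 without EtOH replicate 1, 1 without EtOH replicate 2 or calcipotriol replicate 5, 6 or 7, and 8 without calcipotriol replicate 1. Egr3 kept its call in 12 of 14 alternatives, Esm1 in 10, Nid2 in 8 and Dll4 in 6.

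Of 39 tested genes of the signal path inside the cell, 1 was called higher and 2 lower, with a median of -0.05. Without EtOH replicate 2, 0 were called, and without EtOH replicate 1 or calcipotriol replicate 5, 6 or 7, 1 was called lower. Hspb1, a small heat shock protein that VEGF signalling phosphorylates, rose from 271 ± 43.7 to 557 ± 184 CPM (SD, n = 4 each, edgeR adjusted p = 0.0459). It kept this call in 6 of 14 alternatives. Prkcb, a protein kinase C, fell by 1.05 on the log2 scale (standard error 0.16, adjusted p = 0.0107). Nos3, the nitric oxide synthase of endothelium, had 10.6, 9.49, 5.71 and 6.40 CPM with EtOH and 3.50, 2.47, 2.88 and 3.01 CPM with calcipotriol (edgeR adjusted p = 0.0327). Of 14 other ligands and receptors of vessels, 3 were called lower, S1pr1 (adjusted p = 0.0186), Tie1 (adjusted p = 0.0424) and Dll4, with a median of -0.78. This count was 0 without EtOH replicate 1, EtOH replicate 2, calcipotriol replicate 5 or calcipotriol replicate 6, 1 without calcipotriol replicate 7, and 7 without calcipotriol replicate 1. S1pr1 kept its call in 10 of 14 alternatives, and Tie1 and Nos3 in 8 each. Tek, Tie1 and Eng among the other vessel genes are also endothelial markers. Dll4, Apln and Angpt2 among them are also in the list of genes that VEGF induces.

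Semaphorins, ligands that compete for neuropilins, and plexins together gave 1 call among 12 genes. Sema3c had 11.2, 11.8, 20.4 and 20.3 CPM with EtOH and 27.1, 44.8, 42.8 and 44.3 CPM with calcipotriol, and rose by 1.32 on the log2 scale (standard error 0.251, edgeR adjusted p = 0.0255). Sema3c kept its call in 9 of 14 alternatives, and the median of this list was -0.25. In the group of 6 tested genes that process VEGF-C and VEGF-D, 0 were called with edgeR, DESeq2 or limma-voom, and 1 had an unadjusted p under 0.05. That gene was Ccbe1, which helps to cleave VEGF-C, named here after its values were seen. It had 64.3, 69.4, 62.4 and 57.7 CPM with EtOH and 106, 126, 103 and 121 CPM with calcipotriol. Its edgeR adjusted p was 0.00815, and its log2 fold change of 0.85 ± 0.119 was under the minimum of 1.

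Hypoxia is a known inducer of Vegfa. Of 22 genes of hypoxia sensing or hypoxia response, 0 were called with edgeR, DESeq2 or limma-voom, and at an unadjusted p under 0.05 edgeR gave 2 higher and 2 lower, with a median of 0.06. Their summed level was 3250 to 3805 CPM with EtOH and 5383, 4193, 3344 and 3238 CPM in calcipotriol replicates 1, 5, 6 and 7. Calcipotriol replicate 1 had the highest of these sums. Vegfa was at 233, 238, 261 and 259 CPM in the same calcipotriol-treated tumors, in that order. Car9, a carbonic anhydrase often read as a hypoxia gene and named here after its values were seen, had 12.6, 10.3, 36.0 and 35.6 CPM with EtOH and 113, 37.8, 29.8 and 39.1 CPM with calcipotriol, so its groups overlapped (edgeR adjusted p = 0.238). Also named after their values were seen, Epas1 and Pfkfb3 were the 2 genes of this list whose groups did not overlap. Both were lower with calcipotriol (log2 fold change -0.82 ± 0.197 and -0.96 ± 0.253, edgeR adjusted p = 0.0568 and 0.0755). The part of hypoxia in the Vegfa level was not tested.

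**Figure D5:**
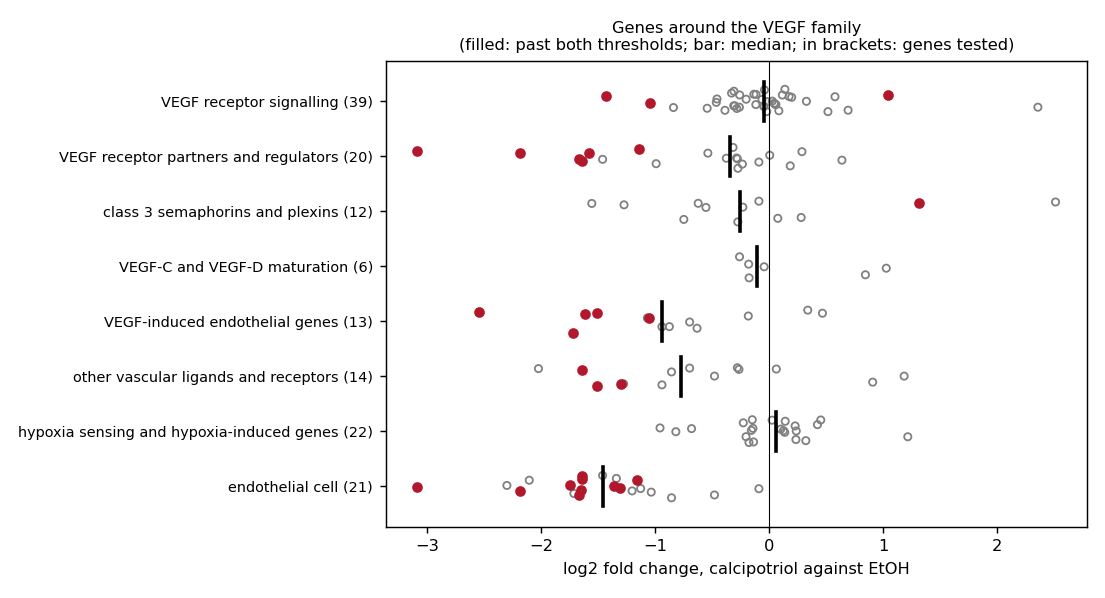
Log2 fold change of each tested gene in the 7 lists around the VEGF family and in the endothelial marker list, calcipotriol against EtOH. Filled points passed both thresholds, bars are list medians and brackets give the genes tested. The medians of the 7 lists run from -0.94 for genes that VEGF induces in endothelium to 0.06 for hypoxia genes, beside 0.02 over all genes. The endothelial markers have a median of -1.46.

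The genes whose profile over the 8 tumors was most like that of a member were ranked by the root-mean-square difference of log2 CPM, each gene centred on its own mean, among 14421 genes outside the family. For Vegfa these were Mir22hg (difference 0.106), Fam84a (0.177), 4632404H12Rik (0.195), Srgap3 (0.203) and Atp10d (0.205). Mir22hg, the host transcript of a microRNA, went from 8.73 to 24.8 CPM on average. For Kdr they were Otop1 (0.231), Tnik (0.252), Tal1 (0.272), Fam49a (0.287) and Csf2rb (0.305). Otop1, a proton channel, went from 38.5 to 10.1 CPM. Tal1 is a transcription factor of blood and endothelial cells and had 2.28 and 0.828 CPM.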

How the data were processed

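RNA of 4 EtOH-treated and 4 calcipotriol-treated PyMt tumors was sequenced with the NEBNext Ultra kit (strand not stated). The authors deposited estimated counts per gene (expected counts), not scaled between tumors. Their processing notes list STAR 2.5.3, RSEM 1.3.1, DESeq2 1.24.0 and GRCm38, with no roles, and the annotation is not given in the sources used here. Of 55414 identifiers, 3281 had no symbol in GENCODE M21 and held 0.305% to 1.99% of the counts of a tumor. In a tumor, 4.20% to 6.22% of the values were not whole and were rounded. The table has 0 columns of other samples. Library totals were 19685419 to 25084713 counts.

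Groups were taken from the treatment labels. Testing used edgeR 4.0.16 under R 4.3.3 (TMM scaling, low-count filter filterByExpr by group, glmQLFTest, Benjamini-Hochberg), and the scripts were tested on simulated data. The biological coefficient of variation was 0.347. Standard errors were the log2 fold change over the square root of F. Alternatives were DESeq2 1.42.0, limma-voom 3.58.1, other scaling factors, other count filters, no fold change minimum, other gene lengths or marker averages, and each tumor left out. The members and gene lists were chosen with earlier results of these data known. The text names all members, up to 4 called genes of smallest p per list, the 5 genes closest in profile to Vegfa and to Kdr, and genes marked as chosen after their values were seen. It also names genes shared between lists and genes that describe a tumor or a marker sum. Of reads shared with other genes, only those of Mir1903, within Nrp1 (80 bases), could overlap exons of a member, and it had 0 counts.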

Additional observations from a re-analysis of the deposited data

How the results depend on the processing

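Vegfa and Kdr, chosen with this comparison known, lay past both thresholds in all 14 alternative fits, with log2 fold changes of 1.303 to 1.51 and -1.84 to -1.69. The number of members called was 2, and 3 with DESeq2 (Flt4 added) or without calcipotriol replicate 1 (Vegfd added). Vegfc ranged from -0.24 to 0.13 over the 14 alternative fits. It reversed in 4 of them that left out 1 tumor, with values of 0.054 without EtOH replicate 1, 0.032 without EtOH replicate 2, 0.133 without calcipotriol replicate 1 and 0.045 without calcipotriol replicate 5. The cause was not tested.

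Over all genes, 292 were called, against 458 without a count filter, 644 with DESeq2 and 110 to 642 with 1 tumor left out (110 without calcipotriol replicate 6, 642 without calcipotriol replicate 1). The pathway lists had 17 called, against 11 with limma-voom and 4 to 24 with 1 tumor left out. The marker lists had 22, against 37 with DESeq2 and 9 to 33 with 1 tumor left out. The alternatives shifted the median log2 fold change of all genes by at most 0.096.

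With lengths of the longest transcript, Vegfa made up 28.9% of ligand level with EtOH and 61.5% with calcipotriol, while Nrp2 (85.4) and Nrp1 (73.3) preceded Vegfb (72.8) and Vegfa (55.8) in EtOH-treated tumors. No paired analysis was run, since the labels do not pair tumors of one group with those of the other. Depth limits Flt4 most, at 31 to 158 counts per tumor, where counting error is largest relative to the level.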
